A study of Homo sapiens with 30 samples.

Results

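In MDA-MB-231 cells, 1946 of the 18303 genomic regions that carried histone H3 lysine 4 trimethylation (H3K4me3) in both parental libraries lay away from annotated promoters and overlapped no region of SAP30, which belongs to the SIN3 corepressor complex. These regions, called distal H3K4me3 regions without SAP30 below, were weak in H3K4me3 and mostly lacked RNA polymerase II (Pol II). They carried acetylated histone H3 lysine 9 (H3K9Ac) less often than distal regions with SAP30. As a whole class, the distal regions without SAP30 were least often found again in the SAP30 knockout line. Among regions of like weakness, promoter regions without SAP30 were found again less often still. They were chosen by 3 measurements. A region had a peak summit of H3K4me3 in both parental replicates, with summits extended by 500 bp at each side and merged. It overlapped no SAP30 region built in the same way from both SAP30 libraries. The stretch from its first to its last summit did not touch the 1000 bp at either side of a transcription start site of a coding or long noncoding RNA (lncRNA) gene in the GENCODE annotation of GRCh37. The other regions were 2935 distal regions with SAP30, 1139 promoter regions without SAP30 and 12283 promoter regions with SAP30.

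MDA-MB-231 is an established human triple-negative breast cancer cell line. ChIP-seq, the sequencing of immunoprecipitated chromatin, was run on parental cells for SAP30, for the SIN3 scaffold proteins SIN3A and SIN3B, and for Pol II, H3K4me3 and H3K9Ac, and the last 3 were also profiled in SAP30-KO1 cells. SAP30-KO1 is a CRISPR/Cas9 knockout of SAP30 which, per the methods of the study, was a mixture of several single-cell clones. SAP30 was profiled in parental cells only, so these lists hold no check of its loss in SAP30-KO1. Each of these 9 groups had 2 libraries with 1 deposited list of peak summits each. A summit is the single base of highest enrichment in a called peak, scored by the authors as −log10 of its q-value. The 18 lists held 10861 to 54622 summits, and the 4 H3K4me3 lists held 20735 to 24079. The sequencing depth is unknown, so a region without a summit had no peak that passed the authors' threshold in that library, which is not the same as no signal. The study describes its n as biological samples or experiments, but the labels do not say whether the 2 libraries of a group came from separate cultures, so p-values measure only the spread between these libraries, which may be technical. With 2 libraries against 2, the smallest two-sided p of the exact permutation test is 0.333. Regions are not replicates, so shares over regions are given per library and without a test. The cell line was checked at start sites of marker genes. VIM, CD44, AXL, FN1 and SNAI2, mesenchymal or basal markers, and EPCAM and KRT8, epithelial markers, had H3K4me3 and Pol II in both parental libraries. ESR1, PGR and CDH1 had H3K4me3 but no Pol II, and GATA3 had neither.

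H3K4me3 marks the first nucleosomes of active genes, where it is laid down mainly at CpG islands by the SET1 and MLL methyltransferases. Away from annotated promoters it is found at unannotated start sites, at some strong enhancers and at CpG-rich DNA. H3K9Ac is laid down by the acetyltransferases GCN5 and PCAF and marks active promoters and enhancers. It is removed by histone deacetylases, which SIN3 complexes carry to chromatin, and SAP30 stabilizes that assembly.

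The distal regions without SAP30 differed widely in sequence, as 3 kinds of example show. Each sequence below is the 201 bases around the best-scoring H3K4me3 summit of 1 region, read from GRCh37 on the plus strand, with each CpG dinucleotide in capitals. The first 3 are among the 10 regions with the best H3K4me3 rank, and lie in introns of BAZ2A, a subunit of a nucleolar chromatin-remodelling complex, EFNB2, a ligand of Eph receptors, and CDKN1A, the cyclin-dependent kinase inhibitor p21.
BAZ2A (chr12:57028560-57028760): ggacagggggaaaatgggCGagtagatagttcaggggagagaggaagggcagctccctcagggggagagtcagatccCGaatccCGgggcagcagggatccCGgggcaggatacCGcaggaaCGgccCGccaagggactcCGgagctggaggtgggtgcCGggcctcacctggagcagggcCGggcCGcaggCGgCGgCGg
EFNB2 (chr13:107186732-107186932): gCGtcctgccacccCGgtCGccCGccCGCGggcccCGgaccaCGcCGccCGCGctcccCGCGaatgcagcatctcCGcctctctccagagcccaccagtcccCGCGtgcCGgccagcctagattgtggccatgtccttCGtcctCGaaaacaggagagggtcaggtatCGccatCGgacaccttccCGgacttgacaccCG
CDKN1A (chr6:36647678-36647878): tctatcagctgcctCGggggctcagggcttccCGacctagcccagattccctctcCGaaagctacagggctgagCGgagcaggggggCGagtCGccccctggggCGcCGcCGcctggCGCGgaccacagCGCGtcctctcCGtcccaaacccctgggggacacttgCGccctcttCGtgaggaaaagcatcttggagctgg
The next lies at the small nuclear RNA gene RNVU1-13 and carried some of the best-ranked Pol II summits of the whole lists.
RNVU1-13 (chr1:147993895-147994095): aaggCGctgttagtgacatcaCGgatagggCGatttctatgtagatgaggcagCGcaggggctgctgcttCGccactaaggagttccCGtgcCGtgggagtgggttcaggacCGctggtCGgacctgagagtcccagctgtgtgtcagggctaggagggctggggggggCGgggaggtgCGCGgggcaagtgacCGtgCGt
The last pair had H3K4me3 in all 4 libraries of that mark but neither H3K9Ac nor Pol II in any library, and the nearest annotated coding genes are RP11-685N3.1 and FOXD4L5.
RP11-685N3.1 (chr2:90449725-90449925): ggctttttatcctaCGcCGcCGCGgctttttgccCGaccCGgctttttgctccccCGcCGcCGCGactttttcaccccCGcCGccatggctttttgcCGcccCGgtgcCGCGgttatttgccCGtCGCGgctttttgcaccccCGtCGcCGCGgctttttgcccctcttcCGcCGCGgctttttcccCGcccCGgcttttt
FOXD4L5 (chr9:70151939-70152139): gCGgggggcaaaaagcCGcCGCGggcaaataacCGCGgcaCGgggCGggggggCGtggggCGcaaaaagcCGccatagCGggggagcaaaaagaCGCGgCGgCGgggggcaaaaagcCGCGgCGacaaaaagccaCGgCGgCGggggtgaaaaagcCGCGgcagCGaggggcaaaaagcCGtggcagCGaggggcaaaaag
The number of CpG in these windows ran from 14 at BAZ2A and RNVU1-13 to 28 at RP11-685N3.1. None of the printed windows overlapped an annotated exon.

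By place, 968 of the 1946 regions (49.7%) lay in introns and 857 (44.04%) between genes, much as the 47.4% and 43.5% of distal regions with SAP30. A further 69 lay in exons, 47 in 3' untranslated regions and 5 in 5' untranslated regions. The median distance to the nearest coding or lncRNA start site was 16188.5 bp, against 9714 bp for distal regions with SAP30. Regions more than 100 kb from a start site made up 12.9% (251 regions) of the class without SAP30 and 3.44% of the class with it, while at 1 to 2 kb the shares were alike, at 13.4% and 13.3%. The nearest start site belonged to a lncRNA gene for 918 regions (47.2%), against 39.7% of distal regions with SAP30 and 21.9% of all H3K4me3 regions. Within 1000 bp of 264 regions (13.6%) lay the start of some other annotated transcript that the rule did not count, 179 of them less well supported transcripts of coding or lncRNA genes and 56 pseudogenes. The nearest coding start site carried H3K4me3 for 58.4% of the regions, SAP30 for 55.4% and Pol II for 52.8%, close to the 61.7%, 61.0% and 57.2% of distal regions with SAP30.

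**Figure D1:**
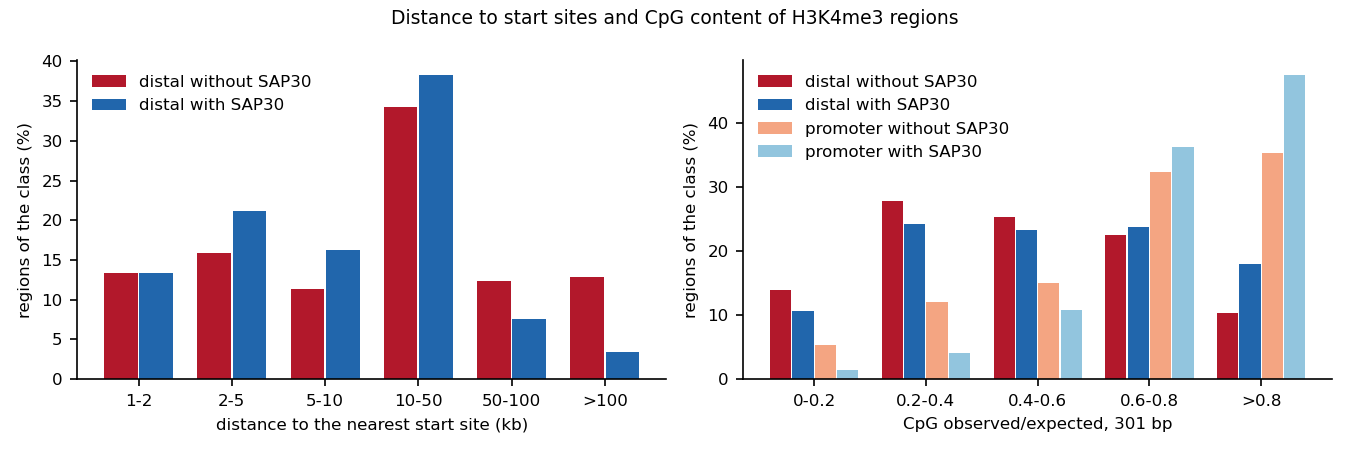
Left, share of distal H3K4me3 regions without SAP30 (red) and with SAP30 (blue) by distance to the nearest coding or lncRNA start site in kb. Right, share of each of the 4 classes by the ratio of observed to expected CpG in the 150 bp at each side of the best summit. Distal regions without SAP30 were the more frequent beyond 50 kb (12.3% and 12.9%, against 7.60% and 3.44%), and 10.3% of them had a ratio over 0.8, against 18.0% of distal regions with SAP30.

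The median distance from 1 region to the next of the class was 383012 bp, with 102 regions having another within 10 kb and 386 within 100 kb. Per megabase, chromosomes 6, 19 and 10 held the most, at 0.847, 0.812 and 0.753. As a share of all H3K4me3 regions of a chromosome, the class ran from 3.91% on chromosome 19, a gene-dense chromosome, to 17.8% on chromosome 4. They were nearest to 1609 different coding genes, and 1382 of these had a single region. ADGRL3, which encodes the adhesion receptor latrophilin-3, was nearest to 8 regions at 123429 to 1874297 bp, of which 3 had H3K9Ac in both parental libraries and 6 were absent from both knockout H3K4me3 lists. Another 11 genes had 5 each. CADM2, CDH9 and CNTN5, which encode cell adhesion proteins, are among these, as is EPHA7, an Eph receptor. The genes named are only some of the 11, and a shared function was not tested. A gene's place in this order also depends on how much DNA without other genes surrounds it.

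Distal regions without SAP30 were the weakest of the 4 classes in H3K4me3, which is a description because both the H3K4me3 and the SAP30 lists chose them. A rank was used in place of the score, with 0% for the best summit of a list and 100% for the weakest. The median of the mean parental rank was 78.4%, within a range of 9.01% to 98.9%, against 65.6% for distal regions with SAP30, 66.5% for promoters without SAP30 and 26.3% for promoters with it. The ranks were alike in both libraries, with medians of 77.1% and 77.4%. When all 18303 regions were divided into deciles by mean rank, 823 of the regions fell in the weakest decile, 668 in the next and 14 in the better 5 deciles together. A single summit of each replicate made up 1574 regions (80.9%), and the median span from the first to the last summit was 56.5 bp. The widest, at 3422 bp in introns of the lncRNA genes LINC00705 and MANCR, had ranks of 67.9% and 74.4%. The next widest lay in the 3' untranslated region of PURB (2692 bp), a nucleic acid-binding protein gene, and in an intron of DCBLD2 (2595 bp), a transmembrane receptor gene.

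The few strong members lay at the edge of the rule. Of the 10 best-ranked, 6 lay within 250 bp of the start of an annotated transcript that is not in the basic set, and 6 had a SAP30 summit in 1 of the 2 SAP30 libraries. The other 4 had no SAP30 summit within 1000 bp, but every 1 of the 10 had one within 1500 bp, and the 14 regions in the better 5 deciles all had one within 2000 bp, against 44.9% of the class. At STK35 (chr20:2083690-2083705, exonic), a nuclear kinase gene, H3K4me3 had ranks of 12.6% and 5.46% in parental and 15.4% and 23.04% in SAP30-KO1 cells. A SAP30 summit of rank 5.09% lay 40 bp away in replicate 1, whereas in replicate 2 the nearest was 1225 bp away, so that no SAP30 region was shared by both lists. The intronic region of CDKN1A had H3K4me3 ranks of 24.3%, 35.1%, 37.0% and 26.9% in parental replicates 1 and 2 and SAP30-KO1 replicates 1 and 2, H3K9Ac ranks of 12.9%, 18.0%, 13.0% and 15.5%, and a SAP30 region 1140 bp away. Its start site lay 1234 bp away. All 10 kept H3K4me3 in both knockout libraries and had SIN3B in both libraries. Of them, 9 had H3K9Ac in all 4 libraries of that mark, and 8 had Pol II in at least 1 library. Strong H3K4me3 regions of all classes pooled, most of them promoters with SAP30 (1765 of 1831 in the best decile), mostly had these too. Over all regions in each of the better 5 deciles, single libraries had knockout H3K4me3 at 99.6% to 99.9% and SIN3B at 88.4% to 98.7%. Parental H3K9Ac was at 98.4% to 99.3% and parental Pol II at 95.6% to 99.2%. Single classes could lie lower, as the 26 promoters without SAP30 in decile 5, with H3K9Ac at 76.9% and 80.8%.

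SAP30 was not wholly missing from the class. No SAP30 summit lay within 1000 bp of 1292 regions (66.4%) in either library, and 647 (33.2%) had 1 in a single library. In 7 regions both lists had a summit, but too far apart to form a shared region. In the central 400 bp there were 13.6 SAP30 summits per 100 regions in replicate 1 and 7.61 in replicate 2, over a level of 1.64 and 1.82 per 400 bp beyond 3000 bp, whereas distal regions with SAP30 had 55.4 and 55.9. The other SIN3 subunits were sparse too. SIN3A had a summit within 1000 bp of 1.49% and 1.28% of the regions in its 2 libraries, and in both at 13 regions (0.668%), against 31.4% of all H3K4me3 regions. SIN3B was present at 11.9% and 8.99%, and in both libraries at 104 regions (5.34%), against 60.4% of all regions. Both SIN3 scaffolds share a complex with SAP30, whose lists the rule used.

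**Figure D2:**
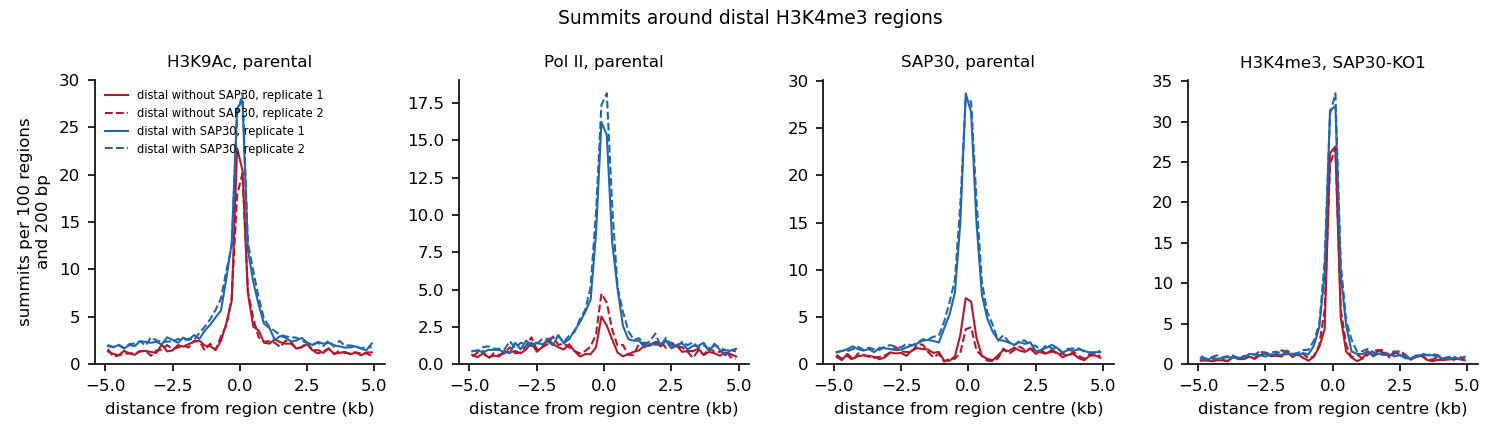
Summits per 100 regions in bins of 200 bp, by distance from the centre of the region in kb, for H3K9Ac, Pol II and SAP30 in parental cells and H3K4me3 in SAP30-KO1 cells, at distal regions without SAP30 (red) and with SAP30 (blue), with solid lines for replicate 1 and dashed lines for replicate 2. All 4 proteins or marks peaked at the centre in both classes, and vertical scales differ between panels. At regions without SAP30 the central 400 bp held 43.3 and 38.03 H3K9Ac summits per 100 regions but 5.76 and 8.84 Pol II summits.

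Taken as whole classes, the regions were poorer in CpG and in G and C than the other classes. In the 150 bp at each side of the best summit the median GC content was 50.8%, against 58.5% for distal regions with SAP30, 67.1% for promoters without SAP30 and 69.1% for promoters with SAP30. The median ratio of observed to expected CpG, which is 1 when CpG is as frequent as its bases allow and low where methylation has eroded it, was 0.468, against 0.519, 0.725 and 0.790. Within deciles of the H3K4me3 rank the order of the 2 distal classes in this ratio changed. In deciles 8 to 10 the median ratio was higher without SAP30 than with it. It was 0.478 against 0.398 in decile 9 and 0.381 against 0.313 in the weakest, but slightly lower in decile 7. GC content without SAP30 stayed lower in each of deciles 7 to 10, at 47.5% against 51.0% in the weakest. With 500 bp at each side the median ratio of the whole class without SAP30 was 0.399. The letters of the GC box, GGGCGG on either strand, which Sp1 and related factors can bind, occurred in 21.4% of these windows without SAP30 and in 38.6% of those of distal regions with SAP30. The E-box CACGTG occurred in 2.47% and 5.21%. TGANTCA, the letters of AP-1 sites, was found in 8.17% and 7.70% of the 2 distal classes but in 2.99% and 2.13% of promoter regions without and with SAP30. GGAATG on either strand, the letters of TEAD sites, was found in 13.1% and 14.2%. Over all 18303 regions the shares were 54.2% for GGGCGG, 4.26% for CACGTG, 3.72% for TGANTCA and 10.7% for GGAATG. A match of letters is not a bound site.

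H3K9Ac divided the class. This mark was not used by the rule. In parental cells a summit lay within 1000 bp of 62.5% of the regions in replicate 1 and 57.9% in replicate 2, and in SAP30-KO1 cells of 53.6% and 57.0%. For scale, 2.64% to 2.87% of the genome lay within that distance of a summit of these lists. Distal regions with SAP30 had H3K9Ac at 90.5% in each parental library, and at 85.8% in both together, so the classes were farther apart than the replicates. Promoter regions without SAP30 had it at 57.2% and 55.0%, in both libraries at 47.3% and in neither at 35.03%, near the values of the distal class without SAP30. In both parental libraries H3K9Ac was found at 971 regions (49.9%), against 86.2% of all H3K4me3 regions, in 1 of them at 400 (20.6%) and in neither at 575 (29.5%). Regions with H3K9Ac in both had a median H3K4me3 rank of 75.3%, a CpG ratio of 0.416 and 49.2% GC. Regions with H3K9Ac in neither had a rank of 81.7%, but a CpG ratio of 0.571 and 55.5% GC. Split by sequence instead, the 638 regions with a CpG ratio over 0.6 had H3K9Ac at 52.8% and 47.6% in the 2 parental libraries, and the 1308 others at 67.2% and 62.8%, although the former had the better median H3K4me3 rank (71.8% against 81.0%).

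Pol II was rare at these regions. A summit lay within 1000 bp of 11.05% and 16.0% in the parental libraries and of 10.7% and 8.17% in the SAP30-KO1 libraries. Distal regions with SAP30 had Pol II at 55.7% and 64.2% in parental cells, and promoter regions without SAP30 at 28.5% and 32.4%. Pol II was present in both parental libraries at 167 regions (8.58%), against 70.7% of all H3K4me3 regions, and 133 of these also had H3K9Ac in both. The reverse, H3K9Ac in both and Pol II in neither, was the case at 690 regions (35.5%). With Pol II in both, the median start-site distance was 7838 bp and SIN3B was present at 41.3% and 28.7%, against 17529 bp and 8.003% and 6.11% with Pol II in neither.

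**Figure D3:**
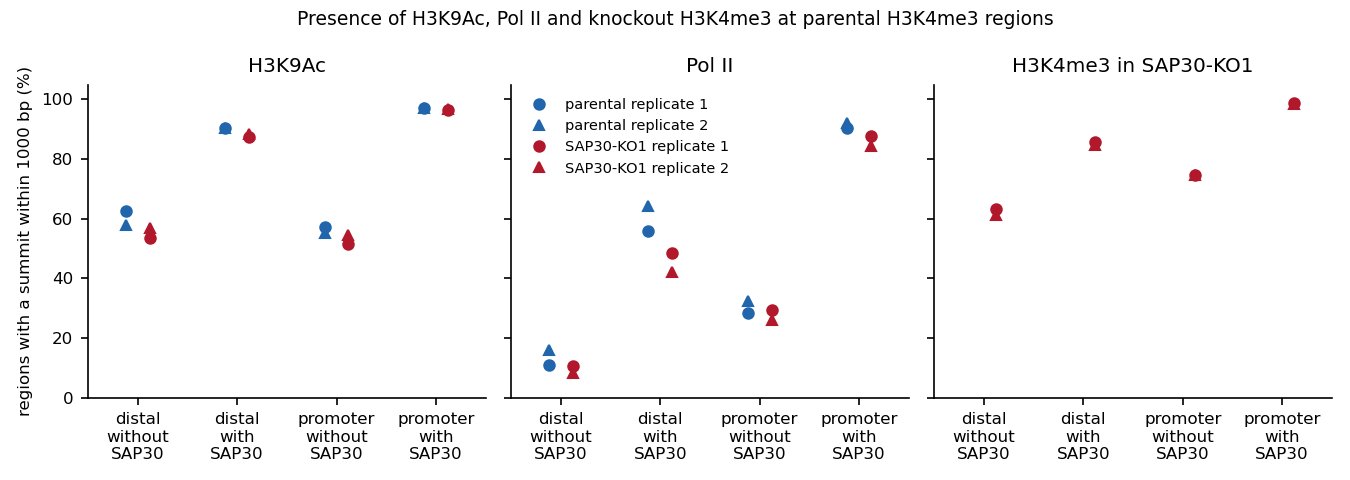
Share of regions (vertical axis, %) with a summit within 1000 bp in each library, for the 4 classes of parental H3K4me3 regions. Blue marks are parental and red marks SAP30-KO1 libraries, circles replicate 1 and triangles replicate 2. Distal regions without SAP30 lay at 53.6% to 62.5% for H3K9Ac, at 8.17% to 16.0% for Pol II, and at 63.3% and 61.2% for H3K4me3 in the knockout.

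Since distal regions without SAP30 were weaker in H3K4me3, the 2 distal classes were also compared within deciles of the H3K4me3 rank. In decile 8, 326 regions without SAP30 had H3K9Ac at 77.9% and 73.0% in the parental libraries, and 665 with SAP30 at 91.4% and 91.6%. In the weakest decile the values were 54.2% and 48.7% for 823 regions without SAP30, against 82.8% and 84.2% for 606 with it. Pol II in decile 8 was at 11.7% and 19.02% against 51.9% and 61.8%, and in the weakest decile at 8.02% and 10.9% against 36.5% and 46.0%. In each of the 4 deciles that held most of the regions, both classes differed by more than their replicates did, for both H3K9Ac and Pol II. Promoter regions without SAP30 were nearer in Pol II, at 16.3% and 21.5% in decile 8 and 6.10% and 10.2% in the weakest. Their H3K9Ac was below that of the distal class without SAP30, at 55.2% and 51.4% in decile 8 and 35.8% and 29.7% in the weakest.

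**Figure D4:**
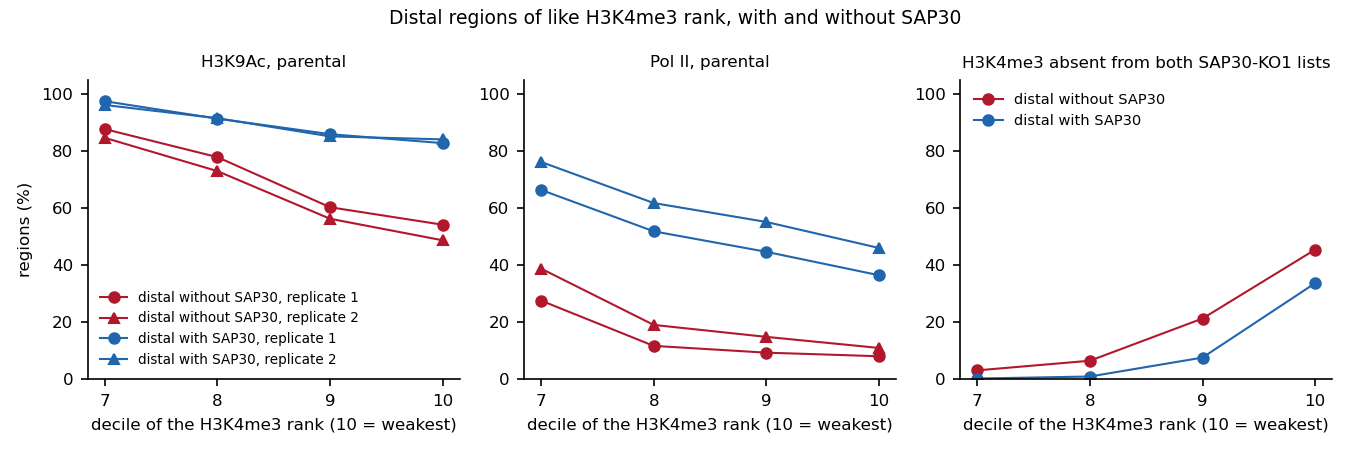
Share of distal regions (vertical axis, %) with H3K9Ac and with Pol II in each parental library, and share absent from both SAP30-KO1 H3K4me3 lists, by decile of the parental H3K4me3 rank from 7 to 10 (weakest), without SAP30 in red and with SAP30 in blue, with circles for replicate 1 and triangles for replicate 2 in the left and middle panels. Within each decile, regions without SAP30 had less H3K9Ac and Pol II and were more often absent, with 45.4% against 33.7% absent in the weakest decile.

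The thresholds of the rule cut through gradual changes. The 146 regions whose nearest SAP30 region had its closest summit more than 1000 and up to 1500 bp away had H3K9Ac at 63.0% and 69.9% and Pol II at 22.6% and 26.7% in the parental libraries. The 150 distal regions at over 500 and up to 1000 bp, which the rule left out, had 76.0% and 78.7%, and 38% and 45.3%. Likewise the 132 regions with a start site at over 1000 and up to 1500 bp had Pol II at 21.2% and 23.5%, and the 143 left out at over 500 and up to 1000 bp had 36.4% and 39.2%. The 1292 regions that overlapped no SAP30 summit region of either library had H3K9Ac in both parental libraries at 40.5% and Pol II in both at 4.72%.

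The regions with H3K9Ac and Pol II in all 4 libraries of each were 58 (2.98%). The 5 among them with the best Pol II ranks included 4 beside genes of small RNAs, which the rule's start sites do not cover. At RNU5A-1 and RNU5D-1, genes of the spliceosomal U5 RNA, the H3K4me3 region lay 333 and 619 bp from the start. At RNVU1-13, a variant gene of U1 RNA, the start lay within the region. A gene of the U3 small nucleolar RNA, in an intron of TEX14, lay 566 bp away. Pol II transcribes U1, U3 and U5 RNA genes. At RNU5A-1 the Pol II ranks were 0.309% and 0.152% in parental and 0.33% and 0.316% in SAP30-KO1 libraries, while the parental H3K4me3 ranks were 74.2% and 84.7%. At RNVU1-13 the Pol II ranks were 0.434%, 0.217%, 0.242% and 0.895%, and the parental H3K4me3 ranks 77.7% and 71.6%. At these genes a Pol II summit among the best 1% of its list lay within 1000 bp of a weak H3K4me3 region in both parental libraries. That pairing follows from the choice, since the best Pol II ranks were picked within a class weak in H3K4me3. The H3K4me3 region was kept in both knockout libraries at RNU5A-1 and RNVU1-13, in 1 at the U3 gene and in none at RNU5D-1. The fifth lay in an intron of the lncRNA gene LINC00963 (chr9:132259489-132259501). Its parental ranks were 29.3% and 38.4% for H3K4me3, 2.28% and 1.61% for H3K9Ac and 7.75% and 8.01% for Pol II. In all, 7 regions had a small nuclear RNA gene as the nearest annotated start within 1000 bp, and 10 a microRNA gene. Among the 7 are RNU1-120P, RNU6-209P, RNU6-263P and RNU7-58P, of which only RNU1-120P had Pol II, in parental replicate 2. Starts of genes other than coding, lncRNA or pseudogenes were the nearest within 1000 bp for 1.49% of the class. The share was 2.21% for distal regions with SAP30 and 0.852% for all H3K4me3 regions.

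At the other end, 408 regions (21.0%) had neither H3K9Ac nor Pol II in any of the 8 libraries of these. Their median CpG ratio was 0.580 and their GC content 56.1%, both above the values of the whole class, and 52.2% were intergenic. H3K4me3 was found in the knockout at 43.1% and 41.4% of them. Within 500 kb of an assembly gap of at least 50 kb lay 49 of them (12.01%), against 7.04% of the class, 9.40% of distal regions with SAP30 and 6 of the 58 regions with H3K9Ac and Pol II in all libraries (10.3%). The 5 best-ranked had CpG ratios of 0.795 to 1.38, and 4 of the 5 lay 66690 to 99275 bp from such a gap. The regions near RP11-685N3.1 and FOXD4L5, printed above, had parental H3K4me3 ranks of 48.3% and 53.7%, and 50.7% and 56.3%, with knockout ranks of 56.8% and 50.1%, and 62.6% and 55.2%. The first held a SAP30 summit of rank 81.1% in SAP30 replicate 1, and the second had none within 1000 bp. These printed windows share a short word. GCTTTTTG, on either strand, was found 3 or more times in the 150 bp at each side of the best summit at 6 of the 1946 regions (0.308%), at 2 of the 2935 distal regions with SAP30 (0.0681%) and at 10 of all 18303 regions (0.0546%). The word was chosen after these sequences were seen. Of the 6, 4 are among the 5 best-ranked regions just described, which were chosen for lacking H3K9Ac and Pol II. The other two, both nearest to TP53TG3D, had H3K9Ac in 4 and 2 libraries and no Pol II. All 6 had H3K4me3 in both knockout libraries. How reads that align to several places were treated is not given in the sources used here, so values in repeated DNA are uncertain.

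In the knockout, the question was whether regions of this class kept H3K4me3 without SAP30, set beside how well 2 libraries of the same cells agreed. An H3K4me3 summit of SAP30-KO1 lay within 1000 bp of 63.3% of the regions in replicate 1 and 61.2% in replicate 2, against 85.6% and 84.7% of distal regions with SAP30. It was present in both at 1016 regions (52.2%), in 1 at 390 (20.0%) and in neither at 540 (27.7%), against 6.18% of all H3K4me3 regions absent from both. For 404 of the 540 the nearest knockout summit was more than 10 kb away, and for 25 it was 1000 to 1500 bp away. The absent regions were the weaker ones, with a median parental rank of 85.5% against 71.5% for those in both knockout libraries. Of the regions, 45.4% were absent in the weakest decile of H3K4me3 and 6.44% in decile 8, against 33.7% and 0.902% of distal regions with SAP30. Promoter regions without SAP30 were absent more often in these deciles, at 50.4% and 7.99%, but less often as a whole class (20.0%).

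The share depended on the line from which the regions were built. The rule required a summit in both parental lists and used no knockout list. Built on the knockout lists instead, the same rule gave 1232 regions, of which 93 (7.55%) were absent from both parental lists, against 1.25% of all regions built that way. Absence in the knockout exceeded absence in the parental cells for this class (27.7% and 7.55%) and for all H3K4me3 regions (6.18% and 1.25%).

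In each library by itself, the rule found 2757 and 2787 such regions in parental cells and 1867 and 2083 in SAP30-KO1 cells. Their means were 2772 ± 21.2 and 1975 ± 153 (SD, n = 2 libraries each), a ratio of 0.712, and the lines did not overlap (two-sided exact permutation p = 0.333, the smallest possible). The ratio was 0.881 for distal regions with SAP30, 0.792 for promoter regions without SAP30 and 0.995 for promoter regions with SAP30. The lists differed in length, but SAP30-KO1 replicate 2, with 23350 summits, had a longer list than parental replicate 2, with 22393. When the 4 H3K4me3 lists were cut to the 20735 best summits of each, the counts were 1744 and 2204 in parental and 1867 and 1426 in SAP30-KO1 libraries, which overlap, and the mean difference was -327.5 regions, against -797 for the whole lists.

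Of the regions found in 1 library, 27.1% to 37.0% were missing from the other library of the same line, with a mean of 30.04%. From a library of the other line 22.4% to 49.4% were missing, with a mean of 37.8%. The difference of 7.78 percentage points was the largest that any pairing of the 4 libraries gave (exact permutation over the 3 pairings, two-sided p = 0.333). It differed by direction. Parental regions were missing from knockout lists at 48.1% on average, and knockout regions from parental lists at 27.6%, below the mean between replicates. For promoter regions with SAP30 the shares were 1.52% between replicates and 1.91% between lines. Restricted to the better-ranked 50% of each source list, which left 25 to 58 source regions per library, the difference turned to -1.15 percentage points.

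**Figure D5:**
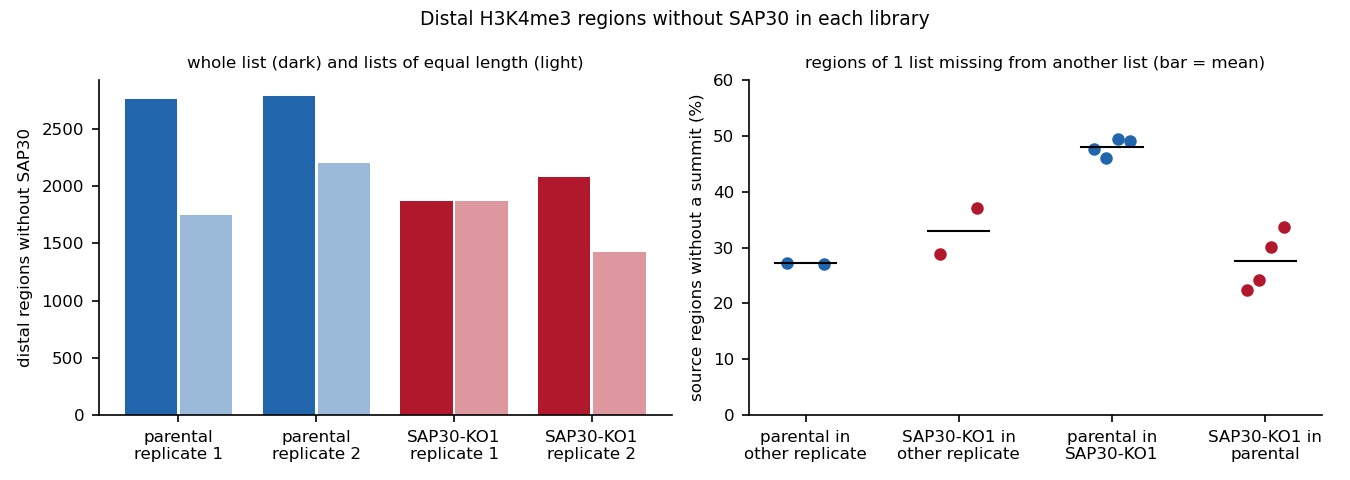
Left, number of distal H3K4me3 regions without SAP30 in each H3K4me3 library, from the whole list (dark bars) and from lists of equal length (light bars). Right, share of the regions of 1 list without a summit in another list (%), by source and other line, where points are ordered pairs of libraries, blue for parental and red for SAP30-KO1 sources, and bars are means. Missing shares between replicates, 27.1% to 37.0%, lay within the range between lines, 22.4% to 49.4%.

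The relative strength of H3K4me3 was compared at the regions that kept it, a choice that itself rests on the knockout lists. The 1016 regions in both knockout libraries were ranked among the 16184 regions present in all 4 lists, where their median ranks were 90.7% and 91.4% in parental and 90.0% and 90.0% in knockout libraries. The median shift of -0.60 percentage points was larger than the difference between the parental replicates (0.38) and that between the knockout replicates (-0.24). All these medians lie near the weak end of the scale.

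H3K9Ac and Pol II were also compared between lines at the same 1946 regions. These were chosen by H3K4me3 in parental cells, which by itself can favour parental cells for other marks. Regions built on the knockout lists were not compared for H3K9Ac or Pol II, so the p-values below do not remove that limit. H3K9Ac was present at 60.2% ± 3.27 of them in parental and 55.3% ± 2.43 in SAP30-KO1 libraries (SD, n = 2), a difference of -4.86 percentage points (two-sided exact permutation p = 0.333). For Pol II the shares were 13.5% ± 3.49 and 9.46% ± 1.82 (SD, n = 2), a difference of -4.06 percentage points (two-sided exact permutation p = 0.333). Leaving out 1 library moved the H3K9Ac difference to -2.54 points without parental replicate 1, to -7.17 without parental replicate 2 and to -3.13 without SAP30-KO1 replicate 1. It moved the Pol II difference to -6.53 without parental replicate 1 and to -1.59 without parental replicate 2. The lines did not overlap for either, but by a narrow margin, with 57.9% against 57.0% for H3K9Ac and 11.05% against 10.7% for Pol II. With the H3K9Ac lists cut to equal length the difference was -2.44 percentage points and the lines overlapped. All H3K4me3 regions differed in the same direction, by -1.46 percentage points for H3K9Ac and -6.56 for Pol II. Of the 1216 regions with H3K9Ac in parental replicate 1, 20.1% lacked it in parental replicate 2 and 26.2% and 22.5% in the SAP30-KO1 libraries. Of the 1126 with H3K9Ac in parental replicate 2, 13.8% lacked it in parental replicate 1 and 24.2% and 21.4% in the SAP30-KO1 libraries. Of the 215 with Pol II in parental replicate 1, 22.3% lacked it in parental replicate 2 and 40% and 55.8% in the SAP30-KO1 libraries. Of the 311 with Pol II in parental replicate 2, 46.3% lacked it in parental replicate 1 and 51.4% and 63.99% lacked it in the SAP30-KO1 libraries.

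At regions that had no H3K4me3 in the knockout, H3K9Ac was present in 50% and 44.3% in the parental libraries and in 31.1% and 33.1% in the knockout libraries. At the 1016 regions that kept H3K4me3 in both knockout libraries, the shares were 69.0% and 64.9%, and 64.0% and 68.4%, so that here the lines overlapped. These sets, and the 5 regions named next, were chosen by their H3K4me3 in the knockout. Lower H3K9Ac or Pol II in the knockout, where H3K4me3 was absent, may follow from that choice and was not tested. The 5 best-ranked regions without a knockout H3K4me3 summit within 3000 bp had parental ranks of 49.6% to 62.2%. All 5 had H3K9Ac in both parental libraries, and none had H3K9Ac or Pol II in a knockout library. Of the 5, 4 had a SAP30 summit within 1000 bp in 1 of the 2 SAP30 libraries. Near SLITRK5, which encodes a neuronal transmembrane protein, the region (intergenic, 182115 bp from that gene) had H3K9Ac ranks of 76.3% and 87.4% and Pol II ranks of 60.2% and 56.5% in parental cells, and the closest knockout H3K4me3 summit lay 32920 bp away. The second was near the start of a transcript of CREBZF, a gene of a basic leucine zipper protein, at 110 bp from it (chr11:85393778-85393796), with H3K9Ac ranks of 48.4% and 50.2% and Pol II in parental replicate 2 only, at 66.3%.

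The share absent from both knockout libraries varied between chromosomes, from 16.1% of 93 regions on the X chromosome to 39.0% of 136 on chromosome 4. Over all H3K4me3 regions of these chromosomes it was 5.07% and 9.42%. Chromosomes 16 and 22 were close to the latter, with 38.3% of 47 and 38.5% of 26 regions of the class. On the long arm of chromosome 11, which the naming rules below do not select, 25 of 60 regions (41.7%) were absent. Of all H3K4me3 regions there, 8.10% were absent. Without that arm the share was 27.3% of the class and 6.11% of all H3K4me3 regions.

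Few genes of the lists examined had such a region within 50 kb of a start site, which is the case for 1985 of 20090 protein-coding genes (9.88%). Among 10 genes that the study followed, 3 had one. NOTCH3, a Notch receptor, had a region in its own intron 5335 bp from a start site (chr19:15306417-15306471), at H3K4me3 ranks of 66.1% and 67.6%, with no H3K9Ac in parental cells. SAP30 itself had one 39716 bp away, and HSPA6, a heat shock protein gene, one at 41680 bp. Of 20 mesenchymal and matrix genes 2 had one, SNAI1 at 3645 bp and ZEB2 at 41209 bp, both repressors of epithelial genes. Of 15 epithelial genes it was GRHL2, a transcription factor of epithelia, at 1435 bp, and CLDN7, a tight junction protein, at 2831 bp. Of 12 YAP and TEAD genes it was WWTR1, which encodes TAZ, at 3425 bp, and AMOTL2, at 31065 bp. Of 14 cytokines it was LIF, at 9824 bp, with ranks of 33.5% and 40.7% and H3K9Ac in both parental libraries, and IL1A, at 16379 bp. None of 10 AP-1 genes had one. Another coding gene was nearer to the region given for SAP30 (HMGB2), HSPA6 (FCGR2C), LIF (OSM) and IL1A (CKAP2L). In 1 of the 2 SAP30 libraries a summit lay within 1000 bp of the region for NOTCH3, SNAI1, ZEB2, GRHL2, CLDN7, WWTR1 and LIF. In neither library was this so for HSPA6, SAP30, AMOTL2 and IL1A. Over the whole class, 33.2% of the regions had a SAP30 summit in a single library. These lists are too short to set against the share of all genes.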

How the data were processed

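ChIP-seq lists were grouped by antibody target and line as labelled. A further 12 samples (input and total histone H3) were not analysed here. Per the submitters' processing notes the tools were FastQC 0.11.2, Bowtie2 2.3.3.1, Picard and MACS2 2.1.0 on hg19 (GRCh37). The authors called summits in each library by itself, and each deposited score is the −log10 of a q-value. The titles name inputs for SAP30 and SIN3A, for SIN3B and for Pol II. Depth, filters and the control used in each call are not given in the sources used here. The labels give a shorter cross-linking time than the study's methods.

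Summits of chromosomes 1 to 22 and X were extended by 500 bp and merged. A library was present at a region when it had a summit within 1000 bp of the span of the region's summits. Start sites were those of basic transcripts in GENCODE release 44, lifted to GRCh37. Python 3.11.15, numpy 2.4.6, pandas 2.3.3, pysam 0.24.0 and samtools 1.23.1 were used. Lines were compared over libraries by two-sided exact permutation, and the rule was tested on simulated lists.

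Regions named were the 10 best-ranked, the 5 best-ranked without a knockout summit within 3000 bp, the 5 with H3K9Ac and Pol II in all libraries and the best Pol II ranks, the 5 best-ranked with neither, the 3 widest, the nearest coding genes with the most regions, the 3 chromosomes with the most regions per megabase, and genes of fixed lists. A gene and the sequences of some regions that these rules select are not reported here. Members and lists were chosen with earlier results of these data known. Alternatives were other extensions, windows, start sites, SAP30 rules, equal list lengths and each library left out.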

Additional observations from a re-analysis of the deposited data

How the results depend on the processing

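Each alternative changed 1 choice. The class held 1946 regions, and 3487, 2443 and 1563 with extensions of 100, 250 and 1000 bp, 1292 when no SAP30 region of either replicate was allowed, and 27 among the better-ranked 50% of each H3K4me3 list. In the same order, H3K9Ac in both parental libraries (49.9%) was at 39.8%, 46.0%, 51.2%, 40.5% and 85.2%. Pol II in both (8.58%) was at 4.72% when no SAP30 region of either replicate was allowed and at 55.6% in the better-ranked 50%, and from 7.49% to 10.4% with other extensions, promoter windows and start sites. Absence from both knockout libraries (27.7%) was 23.9%, 26.1% and 29.9% with the 3 extensions, 29.9% with a promoter window of 3000 bp, 32.3% with no SAP30 region of either replicate and 0% in the better-ranked 50%. With each H3K4me3 or SAP30 parental replicate left out in turn, the class held 1573 to 2787 regions, H3K9Ac in both ran from 44.2% to 48.0%, Pol II in both from 7.31% to 8.12%, and absence from 29.1% to 38.7%. The median CpG ratio was 0.399 in the wider window. The missing share between lines minus between replicates (7.78 points) turned to -1.15 with the better-ranked 50% of the source lists and ran from 3.60 to 12.6 with each library left out. Leaving out 1 library moved the H3K9Ac difference between -2.54 and -7.17 points, the Pol II difference between -1.59 (without parental replicate 2) and -6.53, and the difference in the number of regions between -689 and -905, and at equal list length that was -327.5. No direction changed in these 3, and no alternative gave a p below 0.333. With the replicate number as a block, the differences were the same (-4.86 and -4.06 points and -797 regions) with a two-sided exact p of 0.5, the smallest that 2 pairs allow. At regions present in all 4 lists of a mark, the rank difference between replicates 2 and 1 was compared between the lines. Its correlation was -0.031 across 16184 regions for H3K4me3, -0.034 across 15001 for H3K9Ac and 0.015 across 11185 for Pol II. This cannot show a shared effect of the replicate number on depth, list length or presence, so whether the number pairs libraries stays undecided. Presence rests on a q-value threshold and unknown depth, which limits weak regions most.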
